A study of Mus musculus with 3 samples.

Results

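The 200 genes described here are the most heavily read members of a GENCODE class called TEC, single-locus models for which transcription has been seen but a transcript has yet to be tested by experiment. All transcripts of a gene had to carry the TEC type, which 3213 of the 55536 annotated mouse genes did, and the 200 were selected on the highest mean expected count over 3 libraries. Each library was made from chromatin-associated RNA of primary macrophages grown from bone marrow of C57BL/6J mice. The cells had received 100 ng/ml lipid A, the membrane anchor of endotoxin and a ligand of TLR4, for 30 min. Ribosomal RNA was removed before sequencing, so RNAs with and without a poly(A) tail were kept. All 3 libraries belong to that 1 stimulated group, and no unstimulated library was analysed here. The amount of RNA going into libraries 1, 2 and 3 was 1 µg, 250 ng and 500 ng. The labels call the libraries biological replicates 1 to 3 but give 1 donor record for all of them, with age and sex not collected. The source animal of each library is therefore unclear, and the spread between libraries may be technical, biological or both.

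In GENCODE, TEC models are mostly unspliced stretches built from complementary DNA clones or other evidence that lacked introns and a clear gene structure. Such evidence often lies within the introns of longer genes. Chromatin-associated RNA holds transcripts still being made by RNA polymerase, including introns not yet removed, beside RNAs that remain at their site of synthesis. A read inside such a model can therefore come from the unspliced RNA of the surrounding gene or from a separate transcript, and the count tables hold nothing that tells these apart.

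Because the 200 genes were chosen by their mean expected counts, their levels are given as a description. The lowest-ranked genes inside the limit were 5730507A11Rik, Gm42515 and C130083A15Rik, with mean counts of 310.3, 309.3 and 308.7. Just outside it were Gm43658, Gm47075 and Gm43379, with 307.0, 302.7 and 302.3. The boundary therefore lies within a continuous run of values. Of all TEC genes, 1091 had a mean count of at least 10, here called detected, and 1362 had a count of 0 in every library. All 200 chosen genes had at least 10 counts in every library, with 45 as the lowest single value. By mean count they ranked from 12 to 5003 among all genes.

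The 3′ ends of the 6 genes with the most reads show how these models stop. Each line gives the last 60 bases of the annotated transcript in the RNA's direction, from the GENCODE M21 transcript sequences, with the canonical polyadenylation hexamer AATAAA in capitals where it occurs.
Gm37084: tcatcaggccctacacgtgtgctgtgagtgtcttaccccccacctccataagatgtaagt
Gm45223: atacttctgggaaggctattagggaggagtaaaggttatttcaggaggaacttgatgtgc
Gm45222: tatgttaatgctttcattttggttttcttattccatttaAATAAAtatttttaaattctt
Gm37033: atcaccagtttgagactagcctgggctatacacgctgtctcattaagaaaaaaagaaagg
AC167363.2: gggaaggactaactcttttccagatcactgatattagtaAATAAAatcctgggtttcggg
Gm37472: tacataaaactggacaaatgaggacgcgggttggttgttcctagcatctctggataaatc
On build mm10 these lines lie at chr1:131086252-131086311 on the minus strand, chr7:90137570-90137629 and chr7:90150195-90150254 on the plus strand, chr1:180364939-180364998 on the plus strand, chr17:29093416-29093475 on the minus strand and chr14:61677443-61677502 on the minus strand. Gm45222 and AC167363.2 each hold AATAAA with 15 bases between it and the end. Gm37084, Gm45223, Gm37033 and Gm37472 hold neither AATAAA nor ATTAAA in their last 50 bases. In Gm37033, 13 of the last 20 bases are adenine.

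Across the 200 genes, 42 (21%) had AATAAA or ATTAAA on the transcript strand within the last 50 bases, 32 with the first, 11 with the second and 1 with both. The share was 29.4% in the other 3013 TEC genes, 41.1% in long intergenic noncoding RNA (lincRNA) genes and 72.2% in protein-coding genes, each taken from 1 transcript per gene. Elsewhere in the 200 transcripts, 740 of 13000 windows of 50 bases held either hexamer (5.69%). The ends of these models thus carried the hexamers more often than their own interiors and less often than the ends of the other classes, as counts without a test. At least 10 adenines in the last 20 bases were found in 35 genes (17.5%), against 20.4% of other TEC genes, 19.0% of lincRNA genes and 24.1% of protein-coding genes. Median GC content was 41.9%, against 42.3% in other TEC genes, 46.0% in lincRNA and 49.1% in protein-coding transcripts. Of the 200, 199 had 1 transcript with a single exon. The exception, Gm9874, had 2 transcripts, whose exons were counted together, so it is not shown to be spliced. Their median length was 2991.5 bases, against 2102 in the other detected TEC genes and 1742 in those below 10 counts. Longer models collect more reads at the same level, so the length difference is tied to the ranking by count.

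Counts summed over annotated genes came to 16301150, 17033725 and 16205704, so that the 3 counts that a value of 0 allows correspond to 0.184, 0.176 and 0.185 CPM (counts scaled to the library total), counting error only. All 8 macrophage markers checked were detected, at mean levels from 7.61 to 202 TPM, which takes account of transcript length. The summed marker level was 620, 697 and 972 TPM in libraries 1 to 3. None of the 6 T and NK cell, 5 B cell or 5 neutrophil markers was detected, 4 of 6 stromal and endothelial markers were detected, with the highest at 1.18 TPM, and of 5 erythroid and platelet markers 3 were detected, with Pf4 at 9.54 TPM. TPM of the median detected gene was 2.86, 3.40 and 5.69, so TPM values were higher in library 3 for genes in general.

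The 200 genes together took 288035, 233723 and 285253 counts in libraries 1, 2 and 3. That was 1.77%, 1.37% and 1.76% of each library (1.63% ± 0.23, SD, n = 3). They held 76.9% ± 2.28 of all TEC counts. Their counts were concentrated: the first gene alone held 19.6% of them, the first 10 held 39.7% and the first 100 held 83.6%. Without the first gene, Gm37084, the share of the libraries was 1.31%. The median TPM of the 200 was 8.73, 9.13 and 16.6 (11.5 ± 4.42), against 1.81 ± 0.91 for the other 891 detected TEC genes. It was 4.94 ± 1.75 for 10983 detected protein-coding genes and 1.48 ± 0.72 for 409 detected lincRNA genes. Mean TPM of single genes ran from 3.32 to 428.57, with 118 genes at 10 TPM or more and 5 at 100 or more. In bulk RNA, fewer cells with a transcript and less RNA per cell cannot be told apart.

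Gm37084 (ENSMUSG00000102856.1) had the most reads by a wide margin. It is a 5898-base model at chr1:131086252-131092149 on the minus strand, within Mapkapk2, which encodes a kinase activated by p38 that controls the stability of cytokine messenger RNAs. Its counts were 64840, 42687 and 50346, and its TPM was 426.85, 308.01 and 550.85. It was highest in library 3 by TPM and in library 1 by counts, and library 2 was lowest by both. Mapkapk2 itself had 166.88, 92.80 and 127.28 TPM. Gm37084 was above its host in every library, by 1.73 ± 0.38 in log2 TPM (SD, n = 3), and it collected 9.82 times the host's mean count. The model begins 5677 bases from the host's start and shares no base with a host exon. Host counts and TPM came from annotated transcripts, so reads in introns outside these were not part of the host's level. 

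Picalm, which encodes a clathrin assembly protein of endocytosis, holds 4 of the 200 genes. Gm45223, at chr7:90132492-90137629 on the plus strand, had 9151, 11673 and 12638 counts and 69.51, 97.28 and 159.70 TPM. Gm45222, at chr7:90145948-90150254, had 7209, 8522 and 9969 counts and 65.83, 85.52 and 151.68 TPM. Unlike Gm37084, these 2 genes were lowest in library 1 by both units. Gm45221 followed with 69.52, 77.47 and 111.15 TPM and Gm45220 with 26.98, 24.53 and 36.28 TPM. Picalm was at 320.65, 343.54 and 495.80 TPM, above each of the 4 in every library.

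Itpkb, which encodes a kinase that phosphorylates inositol trisphosphate, holds 3. Gm37033, at chr1:180357649-180364998 on the plus strand, had 8001, 10581 and 6947 counts and 41.98, 60.77 and 60.50 TPM. Gm36933 had 52.77, 62.60 and 59.98 TPM, and the shorter Gm37390, of 872 bases, had 68.29, 85.12 and 84.54 TPM. Library 1 was lowest for all 3 by TPM and library 3 was lowest by counts, and Itpkb itself was lowest in library 1 (100.81, 160.41 and 136.66 TPM). The mean of Gm36933 was 58.45 ± 5.09 TPM (SD, n = 3).

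AC167363.2 (chr17:29093416-29094461, minus strand) lies opposite Cdkn1a, which encodes a cell cycle inhibitor induced by p53. It had 6132, 5698 and 6011 counts and 270.94, 287.08 and 458.52 TPM, while Cdkn1a had 210.28, 164.44 and 382.88 TPM. It was above Cdkn1a in every library, and 273 of its 1046 bases face Cdkn1a exons. Whether the reads were assigned by strand is not given in the sources used here, so reads of such opposite pairs are uncertain.

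Gm42793 had 4849, 3366 and 4352 counts and 172.44, 135.26 and 264.81 TPM. It starts 3 bases into Spp1, the gene of osteopontin, a secreted matrix and cytokine protein, and 24.7% of its bases are shared with Spp1 exons on the same strand. Spp1 had 141.72, 112.36 and 245.38 TPM. The pair followed the same order over the libraries by TPM and differed by 0.22 ± 0.10 in log2 TPM, and reads in the shared bases were divided between them by the authors' quantification.

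Dleu2, a noncoding gene that hosts microRNAs, holds Gm37472 with 50.34, 42.32 and 87.66 TPM and Gm37420 with 53.78, 41.81 and 82.17 TPM. By TPM both were lowest in library 2 and highest in library 3, as was Dleu2 (70.46, 66.05 and 189.98 TPM), but by counts Gm37420 was highest in library 1 (3891, 2739 and 3551). Further leading genes lay within regulators of RNA processing. Gm37589 in Mbnl1, a splicing regulator, had 30.09, 30.61 and 78.85 TPM, and Gm43323 in Rbm47, an RNA-binding protein gene, had 32.98, 30.63 and 56.92 TPM. Library 3 was highest for both.

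Other leading hosts encode proteins of several kinds. A130071D04Rik lies in Ptprc, the gene of the leukocyte phosphatase CD45, and had 19.73, 17.80 and 48.50 TPM, well below its host at 199.26, 163.91 and 332.69. Gm36638 in Pik3r1, a regulatory subunit of phosphoinositide 3-kinase, had 46.77, 27.26 and 95.74 TPM. A630081D01Rik in Dock10 had 69.45, 28.56 and 87.57 TPM. By TPM all 3 were lowest in library 2 and highest in library 3, but by counts A630081D01Rik was highest in library 1 (3028, 1117 and 2260). Gm37159 in Cers6, a ceramide synthase gene, had 50.78, 24.04 and 45.99 TPM, and Gm38357 in Noct, a circadian phosphatase gene, had 81.59, 39.65 and 61.66 TPM. Those 2 were highest in library 1, also by counts (4611, 1983 and 2502 for Gm37159 and 4929, 2163 and 2219 for Gm38357). Gm44292 in Mxd1, a MAX-binding repressor gene, had 41.04, 28.48 and 95.68 TPM and kept an almost fixed distance from its host, at -1.34 ± 0.02 in log2 TPM.

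**Figure D1:**
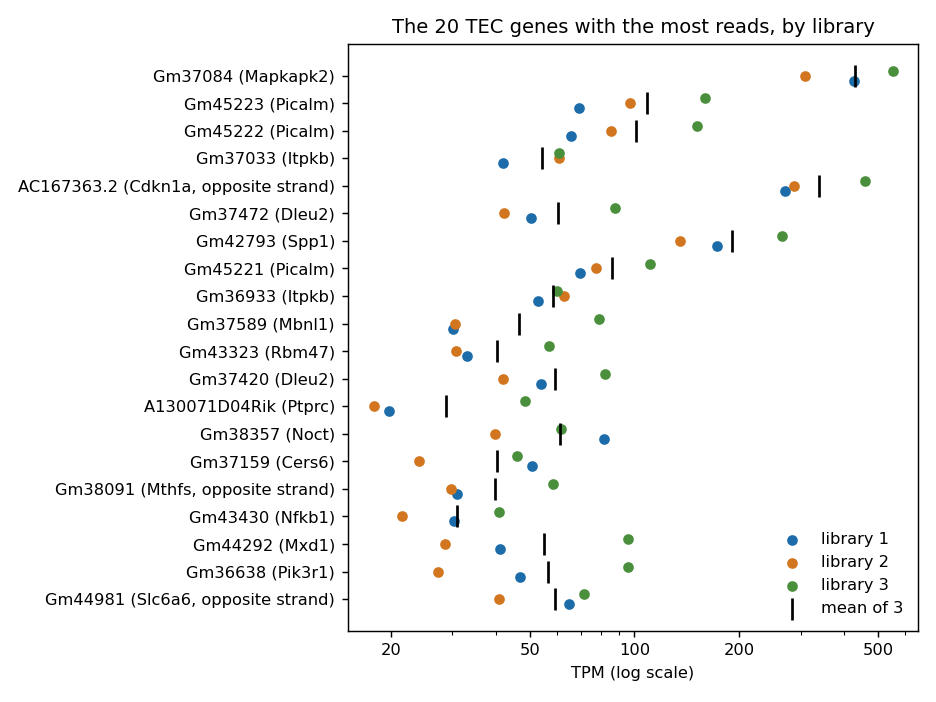
Transcript level (TPM, log axis) of the 20 TEC genes with the most reads, 1 point per library and a bar at the mean of the 3, with the gene around or opposite each in brackets. Gm37084 and AC167363.2 stand to the right of the others, at means of 428.57 and 338.85 TPM, and library 3 holds the highest TPM for most genes.

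A member lay inside or within 5 kb of 2 of 103 listed response and macrophage genes (1.94%), against 157 of 10983 detected protein-coding genes (1.43%). Of 28 NF-κB primary response genes, 1 had a member there, as had 1 of 23 interferon-stimulated genes, 0 of 28 immediate-early genes and 0 of 24 macrophage lineage genes. The first was Nfkb1, which encodes the p105 precursor of an NF-κB subunit. Its member Gm43430 (chr3:135650670-135654566, minus strand) had 2987, 1932 and 2406 counts and 30.30, 21.56 and 40.70 TPM, below Nfkb1 at 53.06, 42.68 and 57.14 TPM. The second was Parp14, an ADP-ribosyltransferase gene, whose member Gm49730 had 914, 352 and 717 counts. Both members were lowest in library 2. Since no unstimulated library was analysed here, no level in this text speaks of induction.

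Position was not used to choose the genes. Of the 200, 162 (81.0%) overlapped a non-TEC gene on the same strand, 32 (16.0%) overlapped such genes on the opposite strand only, and 6 (3.0%) overlapped none. Among the other detected TEC genes the same shares were 70.7%, 16.2% and 13.1%, and among the 2122 TEC genes under 10 counts they were 43.4%, 17.2% and 39.4%. The share that overlaps a gene on its own strand was therefore larger in each class of higher counts, while the share on the opposite strand was similar in all 3. The bar chart of positions shows these shares side by side.

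**Figure D2:**
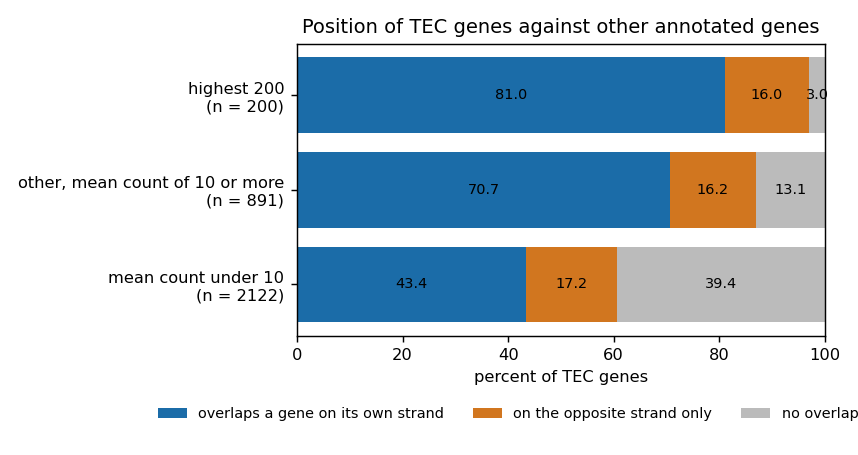
Percent of TEC genes (horizontal axis) that overlap a non-TEC gene on their own strand, on the opposite strand only, or not at all, for the highest 200, the other detected genes and those with a mean count under 10. The grey part, without overlap, is 3.0% in the highest 200 and 39.4% in the genes under 10 counts.

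Of the 162 genes, 161 lay wholly inside a longer gene, here called the host, and 151 of these lay in a protein-coding host. Where several longer genes held a model, the one with the highest mean count was taken as host. Host levels are thus the highest available. The remaining gene, Gm37795, overlapped Mir34a, a microRNA gene, without lying wholly inside it, and had 5.39, 7.02 and 13.2 TPM. No exon base was shared with the same-strand gene in 149 of 162 genes, so these are intronic by the annotation. A smaller part than 50% was shared in 12, and 51.3% in 1, 4930594C11Rik in the glycosyltransferase gene Mgat4a. The 161 genes lay in 124 distinct hosts, and every host was itself detected. Hosts of the other TEC genes were detected in 96.6% of 622 cases where the TEC gene was detected and in 25.7% of 903 cases where it was not. The median host count was 2642, 614 and 0.33 in these 3 classes. Genes inside a host held 86.9% of the 200 genes' counts, opposite-strand genes 11.3% and genes apart from any other 1.60%.

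Over all 1686 TEC genes with a host, the gene's and the host's mean counts rose together, with Pearson's r of 0.86 on log2 counts and Spearman's rho of 0.86. Within the 161 of the highest 200, which span a much narrower range of counts by construction, r was 0.32 and rho 0.27. These correlations are across genes, which share libraries and, in part, hosts, and are not independent replicates.

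Most of the 161 genes were at a lower TPM than their host. The median log2 TPM ratio of gene to host was -1.57, -1.81 and -1.43 in libraries 1 to 3 (-1.61 ± 0.19, SD, n = 3), against -2.35 ± 0.18 for the other 622 detected TEC genes. The ratio contains the gene's own level, which the choice raised. The host's level comes from its annotated transcripts and leaves out reads in other intron sequence, so it is not the output of the whole host. The gene was below its host in every library in 131 cases, above it in every library in 18, and on both sides in 12. Among the 149 genes without a shared exon base, the median was -1.53 ± 0.19 and 17 were above their host in every library.

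The genes furthest above their hosts, apart from those already named, were picked out after their values were seen. Gm43982 and Gm43984 both lie in Etv6, the gene of an ETS-family repressor. Gm43982 had 42.35, 37.94 and 63.90 TPM and Gm43984 had 37.27, 25.32 and 35.93, while Etv6 had 5.85, 5.60 and 10.11. Their log2 ratios to the host were 2.74 ± 0.09 and 2.21 ± 0.42, and neither overlapped Etv6's values in any library. Gm47087 in Maml2, a Notch coactivator gene, stood at 2.08 ± 0.23 over a low host (1.88, 1.47 and 2.88 TPM). 6430511E19Rik in Gm26944, a noncoding gene, stood at 1.91 ± 0.32, also over a low host (1.82, 1.15 and 3.57 TPM). At the other end, Gm44913 in Nav2, a cytoskeletal regulator gene, was 4.46 log2 units below its host.

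**Figure D3:**
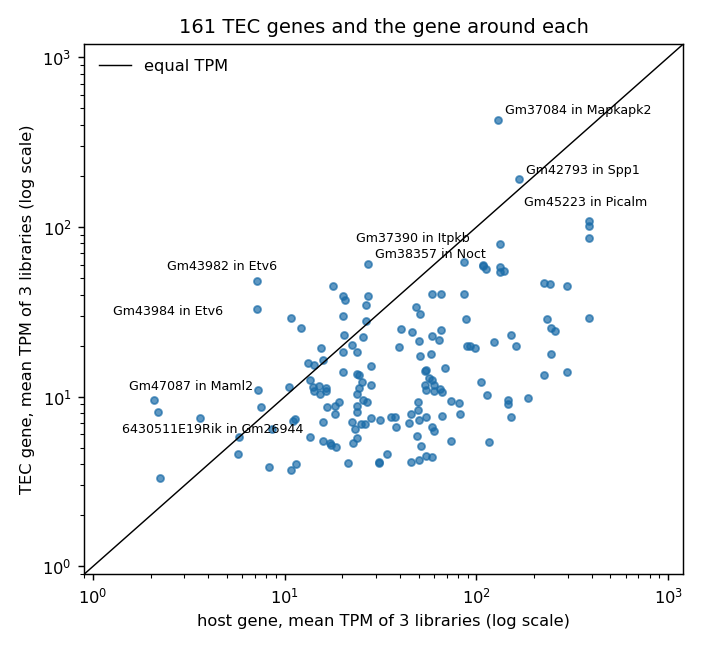
Mean TPM over the 3 libraries of each of 161 TEC genes (vertical, log axis) against that of the longer gene around it on the same strand (horizontal, log axis), with a line at equal TPM. Most points lie below the line, and Gm37084 in Mapkapk2 and the 2 genes in Etv6 lie clearly above it.

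The genes tended to lie toward the start of the host. The midpoint of the model stood at a median of 32.0% of the host's length, against 43.1% for the other detected TEC genes and 44.0% for those under 10 counts. It was before the host's middle for 106 of 161 genes (65.8%), against 57.2% and 56.0%. Within 5 kb of the host's start lay 23 genes (14.3%), against 9.32% and 7.09%. The median distance from the host start was 31987 bases in hosts of a median 115193 bases. No test was made of these shares.

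Of the hosts, 24 held at least 2 of the 200 genes, 61 genes in all. The gene nearest the host's start was above the one furthest from it in all 3 libraries in 15 hosts and below it in 3, namely Rab43, Lncpint and Ap3s1, and the order was mixed in 6. Of 8 hosts with 3 or more, the TPM fell at each step in every library in 3, Camk2d, Kansl1l and Plxna2. In Camk2d, a calcium- and calmodulin-dependent kinase gene, mean TPM went from 14.4 ± 4.54 at 3727 bases from the start through 11.0 ± 3.39 and 7.59 ± 2.78 to 4.46 ± 2.25 at 141195 bases. In Cers6, mean TPM went from 40.3 ± 14.3 at 29925 bases to 22.8 ± 8.65, 4.40 ± 2.21 and 6.66 ± 2.02 at 156655 bases, so the last step was upward. In Fli1, the gene of an ETS-family activator, the third model, Gm38346, was the highest in every library at 25.68, 29.63 and 62.20 TPM. By the authors' second quantification, described below, the first model, Gm37082, was higher, with a mean of 56.0 TPM against 33.7 for Gm38346. In Itpkb the middle model was the highest. Counts summed over the models of a host fell on both sides of the host's own, which come from its annotated transcripts only. Among the 8 hosts with 3 or more, they were 3.97 times the host's in Fli1, 2.82 in Cers6 and 1.87 in Kansl1l. They were 1.40 times in Picalm, 1.02 in Camk2d, 0.92 in Med13l, 0.91 in Itpkb and 0.38 in Plxna2. Among the 16 hosts with 2 models the ratio ran from 0.14 in Trip12 to 10.1 in Ap3s1, with 5.71 in Etv6. The plots along the hosts show all libraries falling along Camk2d, Kansl1l and Plxna2, but the shape was not the same in every host. In Picalm, library 1 was nearly level over Gm45223, Gm45222 and Gm45221, at 69.51, 65.83 and 69.52 TPM. Libraries 2 and 3 fell over these models, from 97.28 to 77.47 and from 159.70 to 111.15 TPM. In Itpkb, Gm37033 was below Gm36933 in libraries 1 and 2 and just above it in library 3 (60.50 against 59.98 TPM).

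**Figure D4:**
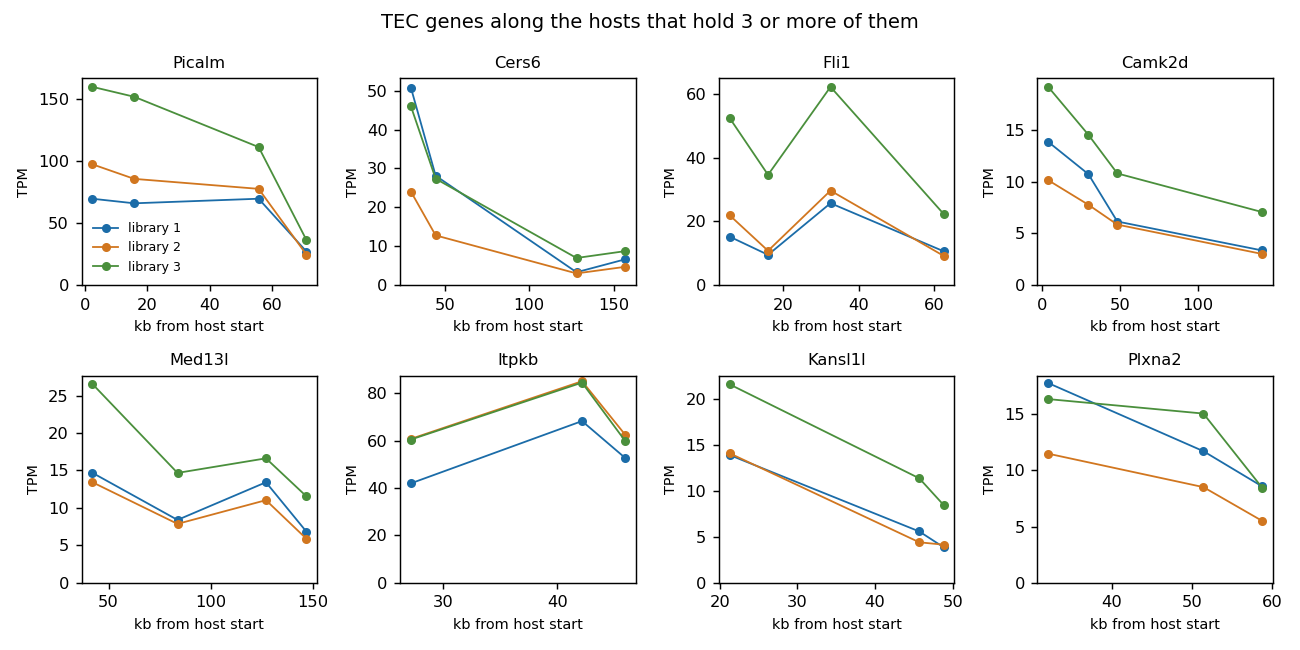
TPM in each library of the TEC genes along the 8 hosts that hold 3 or more, against distance from the host's start in kb, 1 line per library. Levels fall along Camk2d, Kansl1l and Plxna2 in every library, while Itpkb peaks at its middle gene and Fli1 at Gm38346. All values are from the first quantification, and the peak in Fli1 was not kept in the second.

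The 32 genes with overlap on the opposite strand only faced 28 distinct genes, all with a mean count of at least 10, the lowest being 62.1 and the median 2588. Where several opposite genes overlapped a model, the one with the highest mean count was taken. In every library 25 of them were below the opposite gene in TPM and 4 above it, and 3 were mixed. No exon base faced an exon of the opposite gene in 20, while 12 faced at least 1. Gm38091 opposite Mthfs, a folate enzyme gene, had 30.86, 29.75 and 58.36 TPM, without facing exons. Gm44981 opposite Slc6a6, the taurine transporter gene, had 65.01, 40.79 and 71.46 TPM, and Gm45828, which lies inside Slc6a6 on its own strand, had 51.60, 31.19 and 56.27. By TPM these neighbours on opposite strands followed the same order over the libraries, as did Slc6a6 at 235.20, 203.35 and 288.61 TPM. 9330162G02Rik is the longest of the 200 at 30942 bases and lies opposite Ube3a, an imprinted ubiquitin ligase gene with an antisense transcript known from neurons. It had 1.61, 2.64 and 5.87 TPM against 23.87, 33.68 and 63.57 for Ube3a, lowest in library 1 for both.

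Among hosts or opposite genes with a mean count of at least 1000, 369 TEC genes lay inside on the same strand, and 97.0% of them were detected, with a median count of 192. The 98 that lay opposite such genes only were detected in 77.6%, with a median count of 75.4. Of the former 33.9% and of the latter 25.5% were among the 200. The strand setting behind the counts bears on this comparison and is not given in the sources used here.

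The 6 genes apart from any other were also picked out for their position. Gm37352, with 29.32, 41.81 and 69.03 TPM, lies 3202 bases from Gm26887, a lincRNA gene with a mean count of 1. Gm44154 ends 63 bases from Rassf4, a gene of a Ras-association domain protein on the other strand, and had 10.72, 5.76 and 14.81 TPM. Gm37226 lies 2416 bases past Mthfsl on the same strand, with 7.79, 5.43 and 20.51 TPM. The other 3, Gm37120, CT010445.1 and Gm37320, had mean TPM of 4.68, 4.86 and 3.42. All but Gm37352 were thus below the median of the 200 genes.

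By chromosome, 41 of the 200 lay on chromosome 1 (20.5%, against 14.8% of all TEC genes), 24 on chromosome 6 (12.0% against 9.43%) and 22 on chromosome 5 (11.0% against 15.5%). None lay on chromosome 11, 19, X or Y, where 15, 22, 6 and 9 TEC genes are annotated.

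The 200 genes differed more between libraries than protein-coding genes did. The range of log2(CPM + 0.1) over the 3 libraries had a median of 0.62 and ran from 0.05 to 3.99, and it was above 1 in 44 genes (22.0%). Protein-coding genes in the same span of mean counts (4533) had a median of 0.39, with 5.87% above 1. It was 0.57 and 20.4% in 49 lincRNA genes and 0.56 and 21.8% in 55 antisense RNA genes of the same span, so the TEC genes lay near the other noncoding classes. Library 2 was lowest for 144 of the 200 genes (72.0%), as for 79.6% of the lincRNA and 67.3% of the antisense genes, but 32.9% of the protein-coding genes. Library 3 was highest for 125 of the 200 by CPM, but for 75 when median-of-ratios factors, which differ from the totals by -0.08, -0.06 and 0.14 in log2, replaced the totals, and library 1 was then highest for 102. Library 2 remained the most frequent lowest library, for 123 genes. The amount of input RNA differed in each library, so its part in these differences cannot be told apart.

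**Figure D5:**
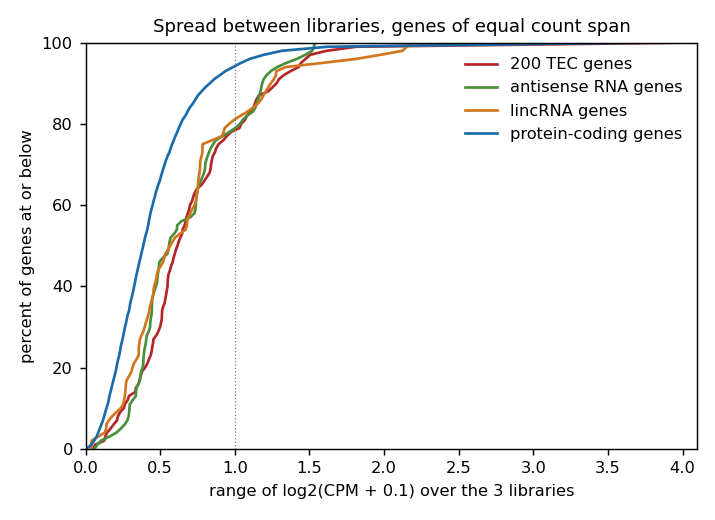
Percent of genes (vertical) at or below a given range of log2(CPM + 0.1) over the 3 libraries (horizontal), for the 200 TEC genes and for antisense, lincRNA and protein-coding genes of the same span of mean counts. The 3 noncoding curves run together to the right of the protein-coding curve, with medians of 0.62, 0.56 and 0.57 against 0.39.

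The widest range belonged to Gm37531, with 45, 245 and 736 counts, highest in library 3, while its host Fam117b had 730, 710 and 841. B130021K23Rik in Isy1, a spliceosome gene, had 154, 525 and 634 counts, low in library 1, and Isy1 was lowest there as well (1540, 3910 and 3491). Gm38062 in Dock10 had 2382, 708 and 1303 counts, low in library 2, while Dock10 had 10289, 9315 and 7873. C430019N01Rik in Antxr2, an anthrax toxin receptor gene, had 317, 363 and 1060 counts against 1233, 1204 and 1273 for its host. In 3 of these 4 pairs the host stayed within a log2 range of 0.38, while Isy1 had a range of 1.28. Across the 161 genes with a host, the order of the libraries by CPM was the same as in the host for 63 (39.1%), against 34.7% of the other detected TEC genes, and the highest library was the same for 54.7%, against 55.6%.

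Gm37094 in Gm16867 also had a wide range, and its counts of 1538, 524 and 536 were equal to those of Gm20236 in Slc25a37, a mitochondrial iron transporter gene. The transcripts of the 2 genes are identical over 4540 bases, so their reads were divided evenly and the level of each is unknown within their sum. The authors' posterior SD of the count was 46.2% of the mean for Gm20236 and 48.7% for Gm37094, and its median over the 200 genes was 0.

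Most of the other genes had sequence of their own among annotated transcripts. A median of 98.5% of a gene's 31-base words occurred in no other gene's transcript, and 180 of the 200 (90%) had at least 90% of such words, against 81.8% of the other detected TEC genes. Under 50% were Gm20236, Gm37094, Gm37226 and 4930594C11Rik. Counts were whole numbers to within 0.005 in every library for 176 genes, as where reads fit the annotated transcripts of 1 gene only. Introns outside annotated transcripts were not searched. Neither measure therefore tells a model's own reads from those of a host's unspliced RNA.

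The authors' second quantification, made from the same reads by another route, gave all 200 genes a mean count of at least 10, with 353 as the lowest. The genes were chosen at first-quantification mean counts of 308.7 or more, so this outcome was nearly fixed by the choice. Counts of the second quantification were 1.35 times the first at the median, between 1.13 and 8.51. For all genes detected by the first they were 1.64 times. These ratios contain the first count, which the choice of the 200 raised. Over the 200 genes, rho between the 2 sets of mean counts was 0.93. The largest excess was in Gm45033 in Pik3c2a, a lipid kinase gene, with 399, 634 and 428 counts in the first and 4033, 4258 and 4137 in the second. Gm37954 in Srgap2 followed at 2.96 times, Gm48139 in Col4a3bp at 2.86, Gm45266 in Rab11fip1 at 2.82 and Gm37082 in Fli1 at 2.64. The smallest ratios were 1.13 in 4930594C11Rik, 1.14 in Gm42793 and in 4932442E05Rik, and 1.16 in Gm47087 and Gm38235. The levels of Gm45033 and the next 4 therefore depended most on the quantification, and others moved as well, such as AC123927.3 at 2.27 times. Ranking by the second quantification kept 125 of the 200 genes. Both quantifications read the same libraries.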

How the data were processed

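Total RNA-seq of chromatin RNA was measured in 3 libraries of 1 group. Per the deposited file notes, the authors quantified the reads on build mm10 with GENCODE M21, once from transcriptome alignments and once from the reads; the sources used here name no aligner, tool or strand setting. Per the file headers, the authors' gene tables give expected counts, TPM and posterior scores (posterior mean and SD of the count), and the second table gives estimated counts and TPM per transcript, summed here by gene. TPM has a fixed sum per library, so it holds no depth. Spike-in and other entries outside annotated genes (1.03%, 0.24% and 0.22% of counts) were left out of library totals. Genes, gene lists and comparisons were chosen with earlier results of these data known.

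TEC genes were taken by transcript type (6 of 3219 by gene type were left out) and ranked by mean expected count. CPM is the expected count scaled by the library's total on annotated genes. Position, sequence and word uniqueness came from the GENCODE M21 annotation and transcript sequences. With 1 group there is no contrast, and no test was run. Genes named are the 20 with the highest counts, the 10 with the highest TPM, 3 on each side of the limit, the 5 widest ranges, the 5 largest and 5 smallest ratios of the quantifications and those near listed genes; others were named after their values were seen, for shared hosts, level against the host, overlap on the opposite strand or position. Adenines past the 3′ end need a genome and were not analysed here; the last 20 bases of the transcript were used, chosen after seeing the data. Scaling factors were checked on simulated counts. Alternatives were other pseudocounts, minimums, rankings, scalings and the second quantification, and leaving out each replicate. Versions were Python 3.11.15, pandas 2.3.3, numpy 2.4.6, matplotlib 3.10.9 and scipy 1.17.1.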

Additional observations from a re-analysis of the deposited data

How the results depend on the processing

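Of 45 alternatives over 8 results, 38 left the result as it was, and none turned a direction. For share of counts, level, ratio to the host and range between libraries, that means a shift of less than 1 SD. For counts and percentages of genes it means a value within 1.5 times. Among the 38 are the alternatives for genes seen by the second quantification, an outcome that the choice of genes nearly fixed. The range has 1 value per gene and so no SD over libraries, and its SD over the 200 genes was 0.45. Its alternatives gave 0.53 to 0.62. The share of counts held by the 200 genes, 1.63%, was 2.46% when the 10 genes with the most reads of any class left the denominator, 1.36% in the second quantification and 1.31% without Gm37084, a choice made after seeing the data; leaving out 1 replicate gave 1.57% to 1.76%. The median log2(TPM + 0.1) of 3.47 became 5.02 when TPM was rescaled over genes of at least 300 nt, and 3.17 to 3.63 without 1 replicate. Ranking by the second quantification kept 125 of the 200 genes, ranking by TPM 151, median-of-ratios counts 199, and leaving out 1 replicate 191 to 193. The median log2 ratio to the host of -1.61 was -2.02 in the second quantification and -1.69 to -1.50 without 1 replicate. The share of genes with at least 50% adenine at the 3′ end, 17.5% over 20 bases, was 8.50% over 40. The cause of these shifts was not tested, beyond what each setting removes. Adenines past the 3′ end were not run. No paired analysis was possible because there is 1 group. Depth limits single levels near 0.18 CPM, far below the lowest gene here.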
